A study of Mus musculus with 56 samples.

Results

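The proteasome subunit genes are the 45 genes of the deposited table whose names begin with Psma, Psmb, Psmc, Psmd, Psme, Psmf or Psmg and a number, leaving out the immunoproteasome genes Psmb8, Psmb9 and Psmb10 and pseudogenes named with -ps, out of 14870 genes in all. Messenger RNA was sequenced from 56 whole tibialis anterior muscles, a fast muscle of the mouse shin. The mice were homozygous (labelled HOMO mKO, here HOM) or heterozygous (HET mKO, here HET) for the titin mechanical knock-out allele, or wild type (WT). In this allele, titin, the giant spring protein of the muscle sarcomere, carries a site for the tobacco etch virus (TEV) protease, and an adeno-associated virus (AAV) encoding TEV protease fused to green fluorescent protein delivers the enzyme that severs it. HOM and WT muscles received AAV or saline and were taken 3, 7 or 21 days post injection (dpi), and HET muscles received either at 7 dpi. Saline controls carried the same alleles as the AAV muscles they were set against, and WT muscle with AAV had the virus and protease without a site to cleave. The AAV groups held 4, 5 and 4 HOM, 4 HET, and 5, 4 and 4 WT libraries, and the saline groups 4, 4 and 4 HOM, 4 HET, and 3, 3 and 4 WT libraries. Whether the libraries of 1 group stem from different mice is not stated in the labels, so p-values measure only the spread between samples, which may be technical. The labels used here describe the mice by genotype alone.

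The proteasome is the cell's main protease for proteins tagged with ubiquitin. Its barrel-shaped core particle has outer rings of alpha subunits and inner rings of beta subunits, of which Psmb5, Psmb6 and Psmb7 cut peptide bonds. The regulatory particle that caps the barrel has a base, with a ring of ATPases that unfold substrates, and a lid that removes ubiquitin. In skeletal muscle this system breaks down contractile proteins that ubiquitin ligases such as Trim63 and Fbxo32 mark in wasting, and when proteasome capacity falls short the transcription factor NFE2L1 is known to raise most subunit genes together.

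By role the 45 genes comprised 7 alpha subunits, 3 catalytic and 4 structural beta subunits, 6 base ATPases, 3 other base subunits, 8 lid subunits, 5 activators, 1 inhibitor, 7 assembly factors, and Psmc3ip, which matches the name pattern but is not a proteasome subunit. Of these, 44 had a mean level of 1 CPM or more (counts per 1e6 reads) and were tested. The exception was Psme2b, a near-identical copy of Psme2, whose normalised counts ran from 0.0166 to 1.26. In saline muscle, levels in normalised read counts per kilobase of exon ranged over 17.6 to 73.6 for alpha subunits, 41.5 to 79.4 for the catalytic beta subunits, 21.0 to 67.9 for base ATPases and 16.8 to 54.7 for lid subunits. Assembly factors lay far lower on the same per-kilobase scale, at 1.62 to 8.36, and the inhibitor Psmf1 at 2.27.

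The shallowest library, HOM AAV replicate 2 at 7 dpi, held 6.9 M recovered reads, the next 14.98 M, the median library 21.69 M and the deepest 27.18 M. Mean transgene levels, in normalised counts, were 49.4, 22.4 and 640 in HOM AAV muscle at 3, 7 and 21 dpi, 86.6 in HET AAV muscle and 17.2, 240 and 756 in WT AAV muscle on the same days, so responses were not compared at equal protease expression. Fast fibre markers were abundant everywhere, and a list of 11 of them summed to at least 61481 normalised counts in each of the 56 libraries. HOM saline replicate 1 at 7 dpi and WT saline replicate 2 at 21 dpi stood above the rest of their groups in summed proteasome level. In normalised counts, HOM AAV replicate 1 at 21 dpi had the lowest such sum of the HOM AAV libraries.

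Most of the 31 genes of the core and regulatory particles rose with AAV at 3 and 7 dpi in muscle that carries the cleavable titin. In limma's test 26 of the 31 were called higher in HOM muscle at 3 dpi, beside 17.4% of all genes. At 7 dpi 30 were called higher in HOM muscle, beside 20.6%, and 29 in HET muscle, beside 19.6%. At 21 dpi 9 were higher and 3 lower in HOM muscle, beside 29.7% and 29.6% of all genes. None was called in WT muscle with the same virus at 3 or 7 dpi, where 0% of all genes were. Their summed level in HOM AAV muscle was 3993, 3294, 3950.2 and 3719.8 normalised counts at 3 dpi, against 2853, 2813, 3041 and 2933 in HOM saline muscle. At 7 dpi it was 4075, 4203, 4491, 4133 and 4137 in HOM AAV muscle, against 3420.2, 3054, 3093 and 3101 in HOM saline muscle. HET AAV muscle at 7 dpi had 3969, 4123, 4305 and 4423, against 2952, 3069, 3034 and 2945 in HET saline muscle. In each of these 3 pairs every AAV library lay above every saline library, and the AAV mean was 1.285, 1.328 and 1.402 times the saline mean. At 21 dpi the HOM AAV libraries had 2832, 3621, 3581 and 3398, against 3184, 3189.6, 3336 and 3259 in HOM saline muscle, so that the groups overlapped at a ratio of 1.036. Each value is scaled by an effective library size. Relative to the read total, that size was 1.11 to 1.49 in these AAV libraries and 0.867 to 0.920 in these saline libraries. The overlap and ratio at 21 dpi therefore hold for this scaling, and unscaled sums were not compared. In WT muscle the ratios of AAV to saline were 1.027, 0.970 and 1.064 at 3, 7 and 21 dpi, and the groups overlapped each time. At 21 dpi the effective size relative to the read total was 1.01 to 1.19 in WT AAV libraries. In WT saline libraries of that day it was 0.877 to 0.897, so the same limit holds for that ratio and overlap.

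**Figure D1:**
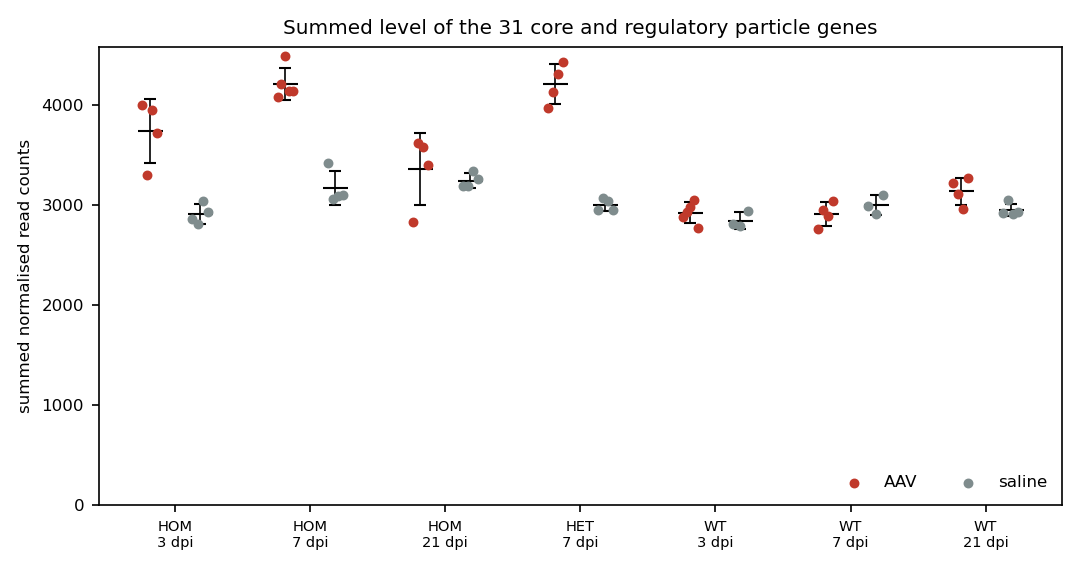
Summed normalised read counts of the 31 core and regulatory particle genes (y axis, linear from 0) in each library by genotype and day (x axis), AAV left of saline; points are libraries, with group mean and SD. HOM AAV libraries at 3 and 7 dpi and HET AAV libraries at 7 dpi lay between 3294 and 4491, above all of their saline libraries, while HOM AAV libraries at 21 dpi spread from 2832 to 3621.

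Gene by gene, limma called 32 of the 44 members higher and 0 lower in HOM AAV than in HOM saline muscle at 3 dpi, where 17.4% of all 13017 genes tested were higher and 17.2% lower. At that time 36 members had an unadjusted p under 0.05, and edgeR and DESeq2 on the recovered reads also called 0 lower. A call is a Benjamini-Hochberg adjusted p under 0.05 over all genes. At 7 dpi 34 were higher and 1 lower in HOM muscle, beside 20.6% and 22.5% of all genes. In HET muscle at 7 dpi 33 were higher and 1 lower, beside 19.6% and 20.8% of all genes. The members' median log2 change was 0.33, 0.39 and 0.41 in these comparisons, against -0.01 for all genes in each. In WT muscle at 3 and at 7 dpi 0 members were called, as were 0% of all genes. There 1 member had an unadjusted p under 0.05 at each time, and edgeR and DESeq2 on the recovered reads also called 0.

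The libraries of the paired groups did not overlap for 24 members at 3 dpi in HOM muscle, all of them higher with AAV, where 14.3% of all genes were separated upward and 13.4% downward. At 7 dpi 29 were separated upward and 1 downward in HOM muscle, beside 16.6% and 17% of all genes, and 33 upward and 3 downward in HET muscle, beside 20.5% and 21%. Of the members called higher, 27 were higher in all 3 comparisons. In both genotypes at 7 dpi 32 were higher, which is 94.1% of the HOM list and 97% of the HET list. The matching overlap among all genes was not counted, so these shares cannot be set beside it. At 7 dpi Psmb2 and Psmd10 were called higher in HOM and not in HET muscle, and Psmg1 in HET and not in HOM muscle. Psmg1 was also called in HOM muscle at 3 dpi. The HOM and HET responses of these genes were not called different. Members called in none of the 3 were Psmd12, a lid subunit, the assembly factors Psmd9 and Psmg3, the activator Psme1 and the inhibitor Psmf1.

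The response itself differed from that of WT muscle. The interaction test, which asks whether AAV minus saline differs between genotypes, called 15 members higher in HOM than in WT muscle at 3 dpi (beside 5.39% of all genes) and 28 at 7 dpi (9.29%). In HET muscle at 7 dpi it called 27 members higher than in WT muscle (10.3%). No member was called lower in any of these 3 differences, where 4.36%, 10.9% and 9.88% of all genes were. In them 27, 35 and 34 members had an unadjusted p under 0.05, and edgeR and DESeq2 called 0 lower too. At 3 dpi the count fell to 9 without HOM AAV replicate 3, and with quantile normalization it was 23. At 21 dpi 0 members differed between the HOM and WT responses, beside 1.84% of all genes higher and 3.79% lower, with 3 at an unadjusted p under 0.05 and 0 called by edgeR or DESeq2.

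**Figure D2:**
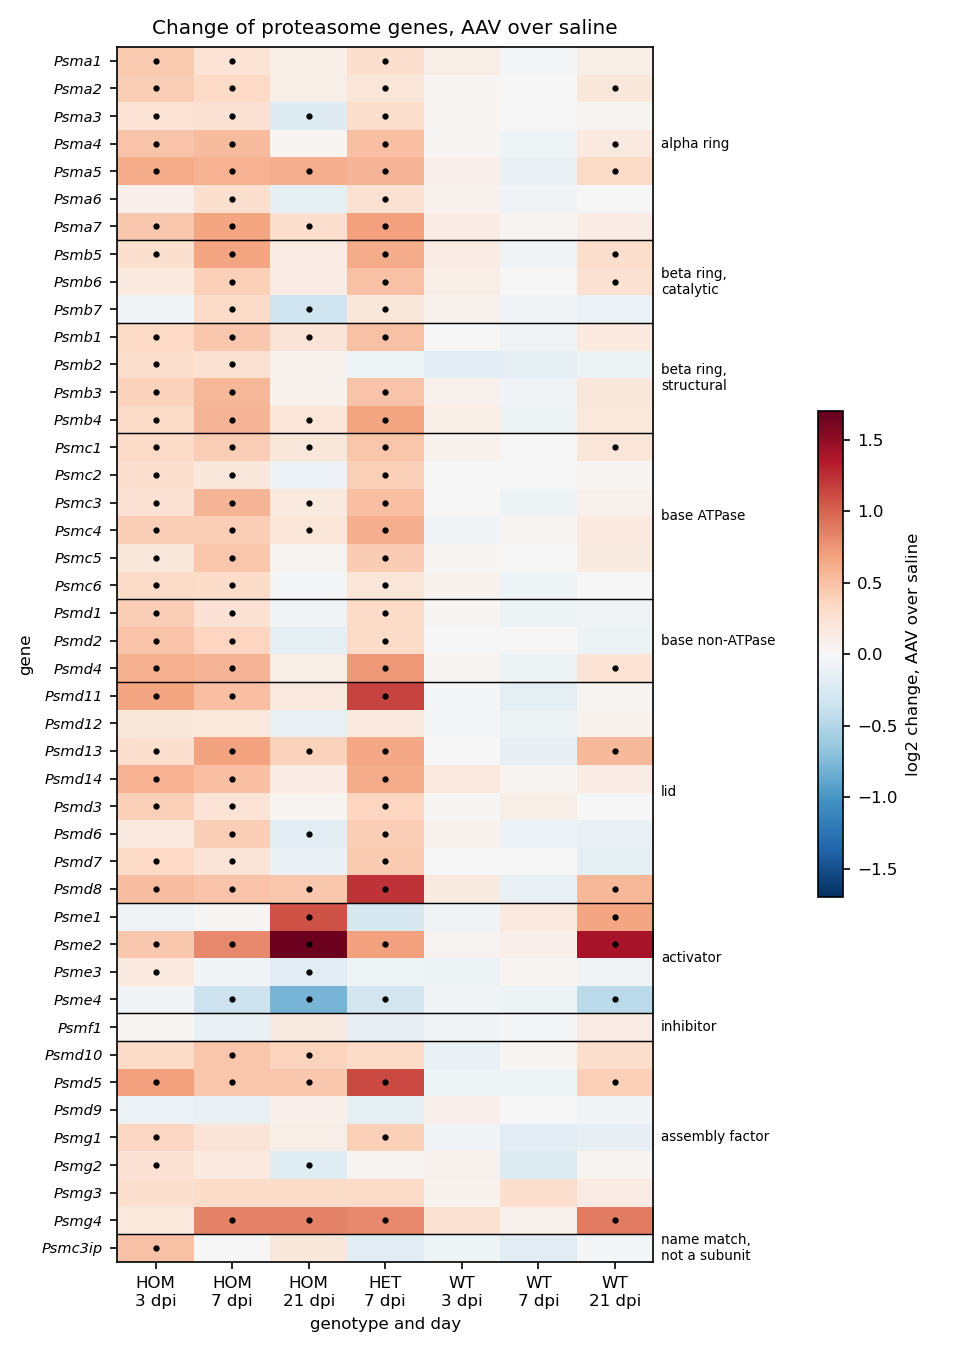
Log2 change of the 44 tested members (rows, by role) with AAV over saline in each genotype and day (columns), from limma; red is higher with AAV, blue lower, and a dot marks an adjusted p under 0.05. Dots fill most core and regulatory particle rows in the HOM 3 and 7 dpi and HET 7 dpi columns, none stands in the WT 3 and 7 dpi columns, and Psme1, Psme2 and Psme4 each change more at 21 dpi than at 3 or 7 dpi in HOM muscle.

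A motif recognised by NFE2L1 and its relatives, the antioxidant response element core TGACNNNGC, was searched on both strands of the RefSeq promoters of GRCm38.p6, which span 250 bases before to 50 after each start. It was present in 6 of the 37 tested members with an entry (16.2%), against 14% of 26987 other genes with an entry. The CCAAT box, bound by NF-Y, was present in 13 of 37 (35.1%), against 41.1%. Neither share was tested, and a match in this window is a description of sequence, not a binding site. The stretches around the 5 matches that end before the start are shown. The remaining match, in Psme4, began at position -7 and ran past the start, so it is not shown. Each match is in capitals and each sequence is read 5′ to 3′ on the gene's strand.
Psmb5 (GRCm38.p6, chr14:54618010-54618066, minus strand): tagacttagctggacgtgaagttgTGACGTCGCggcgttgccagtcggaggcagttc
Psmb6 (chr11:70525324-70525356, plus strand): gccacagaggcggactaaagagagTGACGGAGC
Psmc6 (chr14:45329574-45329629, plus strand): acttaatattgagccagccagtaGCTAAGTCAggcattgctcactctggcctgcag
Psmd12 (chr11:107479278-107479313, plus strand): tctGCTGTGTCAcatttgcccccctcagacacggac
Psmd9 (chr5:123228135-123228189, plus strand): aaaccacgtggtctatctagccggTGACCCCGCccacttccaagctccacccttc
The matches began at positions -47, -9, -227, -247 and -31 from the annotated starts of Psmb5, Psmb6, Psmc6, Psmd12 and Psmd9. Those of Psmc6 and Psmd12 lie on the opposite strand, so the capitals there read as the reverse complement. Psmb5, Psmb6 and Psmc6 were called higher in both genotypes at 7 dpi, while Psmd12 and Psmd9 were called in neither. Psme4 was called lower in both, calls that were lost with quantile normalization.

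Among the alpha subunits, which form the gate of the core particle, 6 of 7 rose in HOM muscle at 3 dpi and 7 of 7 at 7 dpi in both genotypes. Psma5 (plus strand of chromosome 3, 108256926 to 108279974 of GRCm38) had 65.1, 51.5, 70.3 and 56.3 normalised counts in HOM AAV muscle at 3 dpi, against 36.8, 39.4, 41.1 and 36.6 in HOM saline muscle. At 7 dpi it had 60.3, 63.4, 74.7, 61.7 and 66.1 in HOM AAV muscle, against 45, 40.8, 45.9 and 39.96 in HOM saline muscle. At 21 dpi it had 60.2, 73.7, 75.1 and 54.2 in HOM AAV muscle, against 39.6, 38.1, 43.9 and 47.6 in HOM saline muscle. The groups did not overlap on any day, and the log2 changes were 0.64 ± 0.10 (adjusted p = 2.17e-06), 0.59 ± 0.09 (adjusted p = 1.61e-06) and 0.62 ± 0.10 (adjusted p = 4.96e-07). Psma5 was the alpha subunit with the largest rise at 21 dpi, and it was also higher in WT muscle at that time, by 0.33 ± 0.10 (adjusted p = 0.00611).

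Psma7 had 82.4, 90.3, 94.4 and 93.5 normalised counts in HET AAV muscle, against 52.9, 54.9, 56.8 and 55.1 in HET saline muscle at 7 dpi. The HET change was 0.70 ± 0.08 (adjusted p = 3.87e-09) and the HOM change at that time 0.67 ± 0.08 (adjusted p = 5.29e-09). Psma3 rose by 0.24 ± 0.06 (adjusted p = 0.00111) in HOM muscle at 7 dpi and was lower with AAV at 21 dpi, with a change of -0.22 ± 0.06 (adjusted p = 0.00217) that was not called with quantile normalization or when only the groups compared were fitted. Psma6 was the alpha subunit not called at 3 dpi (0.08 ± 0.07, adjusted p = 0.399).

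Of the 3 catalytic beta subunits, 1 was called higher in HOM muscle at 3 dpi, and 3 of 3 rose at 7 dpi in both genotypes. Psmb5, the chymotrypsin-like subunit (minus strand of chromosome 14, 54614119 to 54618022), had 106, 66.9, 79.6 and 78.2 normalised counts in HOM AAV muscle at 3 dpi, against 71.2, 69.8, 67 and 61.6 in HOM saline muscle. These groups overlapped, and the change was 0.27 ± 0.09 (adjusted p = 0.015). This call was lost without HOM AAV replicate 1 (adjusted p = 0.184) or HOM saline replicate 4 (adjusted p = 0.0634), or when only the groups compared were fitted. At 7 dpi Psmb5 had 100.3, 125, 118, 119 and 116 in HOM AAV muscle, against 75.1, 72.4, 70.1 and 69.9 in HOM saline muscle, with no overlap and a change of 0.68 ± 0.08 (adjusted p = 2.96e-08). In HET AAV muscle it had 103, 112, 123 and 114, against 70.5, 75, 69.4 and 74.2 in HET saline muscle, again without overlap, a change of 0.64 ± 0.09 (adjusted p = 2.17e-07).

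Psmb7, the trypsin-like subunit, had 172, 133, 152 and 162 normalised counts in HOM AAV muscle at 3 dpi, against 160.3, 147, 159.9 and 169 in HOM saline muscle, and the groups overlapped. At 7 dpi it had 203, 218, 226, 205 and 203 in HOM AAV muscle, against 179.7, 165, 167 and 158 in HOM saline muscle, all AAV libraries being higher. At 21 dpi it had 115, 147, 153 and 157 in HOM AAV muscle, against 182, 176, 184 and 179 in HOM saline muscle, all AAV libraries being lower. The log2 changes were -0.05 ± 0.07 (adjusted p = 0.635), 0.33 ± 0.07 (adjusted p = 6.95e-05) and -0.34 ± 0.07 (adjusted p = 3.7e-05). The last was not called with quantile normalization (adjusted p = 0.232). Psmb6, the caspase-like subunit, changed by 0.16 ± 0.07 (adjusted p = 0.069), 0.41 ± 0.07 (adjusted p = 4.32e-06) and 0.13 ± 0.07 (adjusted p = 0.125) on the same days.

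The 4 structural beta subunits were all called higher in HOM muscle at 3 and at 7 dpi, with log2 changes of 0.30 to 0.40 and 0.26 to 0.58. In HET muscle 3 of 4 rose. The exception was Psmb2, with 42.5, 43.8, 48.8 and 41.6 normalised counts in HET AAV muscle and 46.9, 50.5, 42.9 and 45.8 in HET saline muscle, a change of -0.07 ± 0.08 (adjusted p = 0.489). The HOM and HET responses of Psmb2 were not called different (log2 difference 0.33 ± 0.11, adjusted p = 0.0905).

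All 6 base ATPases rose in HOM muscle at 3 dpi (0.19 to 0.42 on the log2 scale) and at 7 dpi (0.19 to 0.57), and in HET muscle (0.20 to 0.62). Psmc3 had 232, 242, 265, 237 and 244 normalised counts in HOM AAV muscle at 7 dpi, against 169, 169, 154 and 162 in HOM saline muscle, and every AAV library was higher. The change was 0.57 ± 0.07 (adjusted p = 9.38e-09), and at 3 dpi it was 0.25 ± 0.07 (adjusted p = 0.00629). That call was lost without HOM AAV replicate 1 or when only the groups compared were fitted. The 3 other base subunits, Psmd1 and Psmd2, which are scaffolds, and Psmd4, a ubiquitin receptor, were also called in each of the 3 comparisons. Psmd4 had 168, 129, 154 and 139 in HOM AAV muscle at 3 dpi, against 96.4, 93.9, 99 and 95.5 in HOM saline muscle. Its HET change of 0.73 ± 0.08 (adjusted p = 2.75e-09) was the largest among base subunits.

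In the lid, 6 of 8 subunits rose in HOM muscle at 3 dpi and 7 of 8 at 7 dpi in both genotypes, and 2 of them differed in size between genotypes. Psmd11, a scaffold subunit of the lid (plus strand of chromosome 11, 80428615 to 80473248), had 199.7, 228, 244 and 252 normalised counts in HET AAV muscle, against 95.3, 107, 106 and 103 in HET saline muscle. In HOM muscle at 7 dpi it had 179, 232, 178, 207 and 155 with AAV, against 183, 105, 125 and 125 with saline. The HET groups did not overlap, and the HOM groups did because of saline replicate 1. The changes were 1.16 ± 0.12 (adjusted p = 2.15e-10) in HET and 0.52 ± 0.11 (adjusted p = 0.000263) in HOM muscle.

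Psmd8, another lid subunit (minus strand of chromosome 7, 29174188 to 29180701), had 195, 224, 210.0 and 225 normalised counts in HET AAV muscle, against 90.5, 103, 83.2 and 86.7 in HET saline muscle. In HOM muscle at 7 dpi it had 170.4, 174, 130.3, 171 and 139 with AAV, against 149.9, 95.1, 118 and 88.7 with saline, and these groups overlapped. The changes were 1.23 ± 0.12 (adjusted p = 1.26e-10) and 0.49 ± 0.12 (adjusted p = 0.000731). The assembly chaperone Psmd5, which helps to build the base (minus strand of chromosome 2, 34849734 to 34874968), had 32.1, 41.5, 37.3 and 42.3 in HET AAV muscle, against 16.1, 18.6, 18.4 and 15 in HET saline muscle. It had 28.2, 36.7, 25.3, 35.1 and 24.7 in HOM AAV muscle at 7 dpi, against 29, 19.98, 19.4 and 17.7 in HOM saline muscle. It changed by 1.12 ± 0.12 (adjusted p = 8.89e-10) in HET and 0.47 ± 0.12 (adjusted p = 0.00113) in HOM muscle. In HOM muscle at 3 dpi Psmd5 changed by 0.70 ± 0.12 (adjusted p = 2.39e-05) and Psmd11 by 0.68 ± 0.12 (adjusted p = 2.38e-05). These were the largest changes among the members called in that comparison, and Psmd8 changed there by 0.53 ± 0.12 (adjusted p = 0.000823).

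These 3 genes were the members called different between the HOM and HET responses at 7 dpi, all smaller in HOM muscle, beside 2.54% of all genes; 0 members were larger, beside 0.699%. Quantile normalization gave 3 smaller and 1 larger. The differences were -0.64 ± 0.16 (adjusted p = 0.016) for Psmd11, -0.74 ± 0.17 (adjusted p = 0.00621) for Psmd8 and -0.65 ± 0.17 (adjusted p = 0.0177) for Psmd5. HOM saline replicate 1 at 7 dpi had the highest value of all 3 genes among the HOM saline libraries of that day. Without it the difference for Psmd8 kept its call, those for Psmd11 and Psmd5 did not (adjusted p = 0.0979 and 0.101), and 1 other member was larger in HOM muscle. The Psmd5 call was also lost without HET AAV replicate 4 or HET saline replicate 4, and those of Psmd5 and Psmd11 when only the groups compared were fitted. Psmd8 and Psmd11 were also higher in HOM than in WT muscle that had received saline. At 21 dpi Psmd8 had 129.8, 129, 128 and 106 in HOM muscle, against 81.2, 84.3, 78.4 and 81.5 in WT muscle (0.59 ± 0.12, adjusted p = 0.00189). Psmd11 had 152, 125, 137 and 129 in HOM muscle, against 93.8, 98.2, 97.1 and 104 in WT muscle (0.46 ± 0.12, adjusted p = 0.0169). The call for Psmd11 was lost without HOM saline replicate 1 or WT saline replicate 1 of that day.

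**Figure D3:**
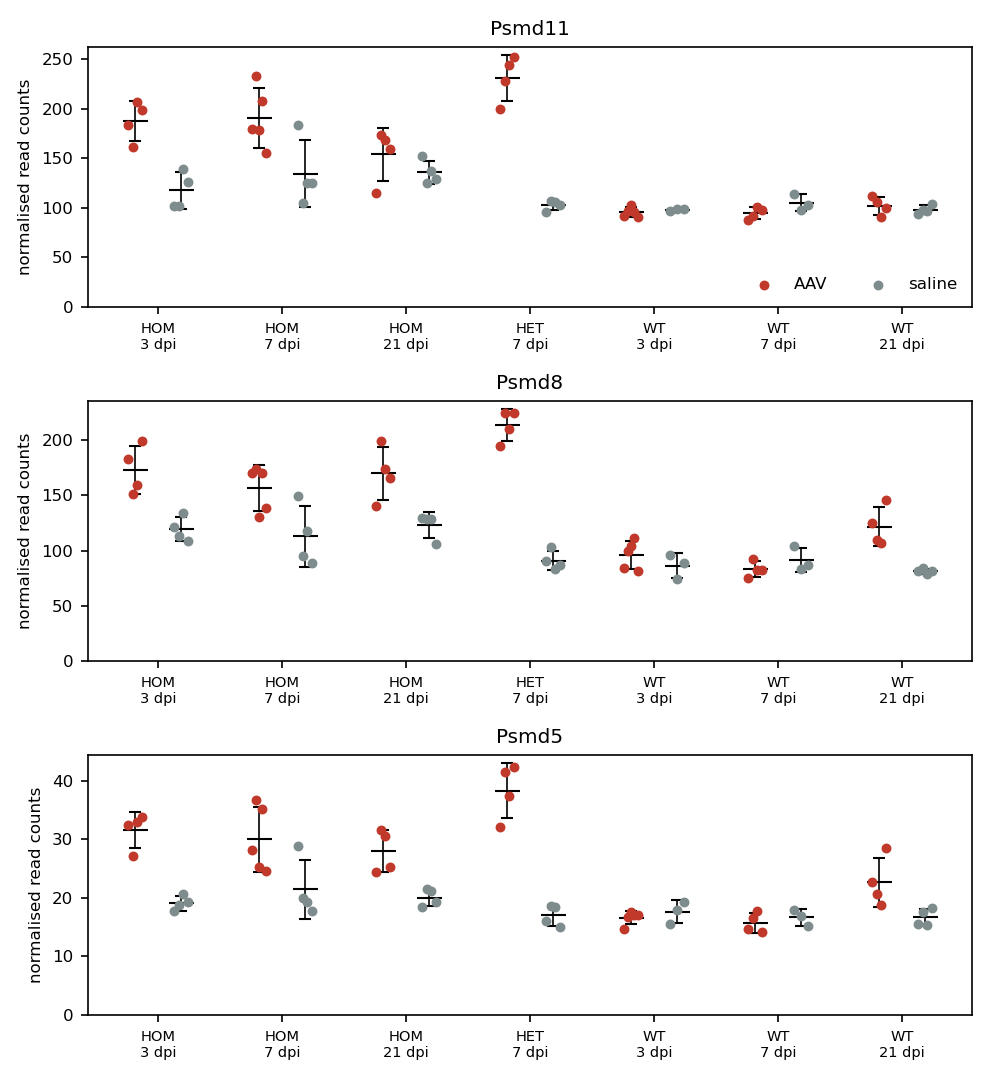
Normalised read counts (y axes, linear from 0) of Psmd11, Psmd8 and Psmd5 in each library by genotype and day (x axis), AAV left of saline; points are libraries, with group mean and SD. The HET AAV libraries, from 199.7 upward for Psmd11, lay clear of HET saline, and 1 HOM saline library at 7 dpi lay among the AAV libraries of that day.

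**Figure D4:**
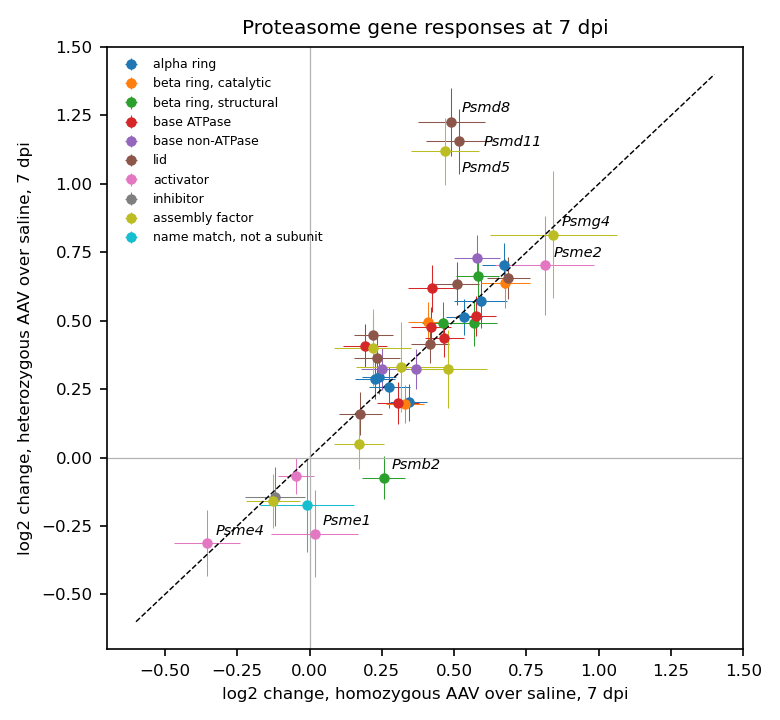
Log2 change with AAV over saline at 7 dpi in HET muscle (y axis) against HOM muscle (x axis) for the 44 tested members, coloured by role, with SE bars and a dashed line of equality. Most members lie near the line, and Psmd8, Psmd11 and Psmd5 lie above it, with HET changes of 1.12 to 1.23.

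Besides Psmd8 and Psmd11, Psma4 was called higher in HOM than in WT saline muscle at 21 dpi (0.23 ± 0.07, adjusted p = 0.0341; not called when any of 5 of the 8 libraries was left out or with quantile normalization), so that 3 members were higher and 0 lower, beside 2.6% and 0.722% of all genes. In this comparison 8 had an unadjusted p under 0.05, and edgeR and DESeq2 called 0 lower. The summed level of the 31 core and regulatory particle genes was 1.099 times that of WT saline muscle on that day, without overlap of the libraries. At 3 dpi 1 member, Psmd8, was higher in HOM saline muscle (0.47 ± 0.13, adjusted p = 0.0482; beside 1.71% of all genes). edgeR did not make this call, which was also lost under 5 other processing settings and when any of 5 of the 7 libraries was left out. At 7 dpi 0 members were called between HOM and WT saline muscle (1.63% of all genes higher, 0.453% lower) and 0 between HET and WT saline muscle (0.131% higher, 0.0691% lower). In those 2 comparisons 3 and 1 members had an unadjusted p under 0.05, and edgeR and DESeq2 called 0.

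The activators, which cap the core particle in place of the regulatory particle, went separate ways. Psme2, the beta subunit of PA28 (minus strand of chromosome 14, 55587441 to 55591113), had 27.7, 26.8, 28.2 and 18 normalised counts in HOM AAV muscle at 3 dpi, 31.4, 39.2, 35.1, 38.2 and 32.4 at 7 dpi and 81.6, 73.9, 75.7 and 36.7 at 21 dpi. HOM saline muscle had 15.1, 18.2, 19.8 and 18.7 at 3 dpi, 18.2, 18.6, 19.99 and 21.6 at 7 dpi and 15.9, 21.1, 21.8 and 19.9 at 21 dpi. The groups overlapped at 3 dpi and were separate at 7 and 21 dpi, and the changes were 0.45 ± 0.18 (adjusted p = 0.046), 0.81 ± 0.17 (adjusted p = 0.000159) and 1.66 ± 0.18 (adjusted p = 1.2e-10). The 3 dpi call was lost when any of 6 of the 8 libraries was left out, with the replicate block (adjusted p = 0.0508), with quantile normalization and with a pseudocount of 4. Because RSEM divides reads between near-identical copies, some reads of Psme2 and Psme2b may have been exchanged.

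Psme1, the partner subunit of PA28 (plus strand of chromosome 14, 55578123 to 55581529), was not called at 3 or 7 dpi in any genotype. At 21 dpi it had 78.5, 67, 63 and 38.1 in HOM AAV muscle, against 27.2, 26.2, 28.2 and 28.9 in HOM saline muscle, and all AAV libraries were higher (1.08 ± 0.16, adjusted p = 1.48e-07). In WT muscle at 21 dpi Psme1 had 41.2, 33.2, 59 and 82.9 with AAV, against 29.8, 30.7, 32.7 and 33 with saline (0.68 ± 0.16, adjusted p = 0.000694). Psme2 there had 39.7, 27.8, 51.9 and 70.7 with AAV, against 16.5, 16.3, 16.1 and 16.7 with saline (1.4 ± 0.18, adjusted p = 4.36e-08). The WT groups did not overlap for either gene.

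Psme4, the large activator PA200, fell instead. It had 148, 234, 235 and 281 normalised counts in HOM AAV muscle at 21 dpi, against 346, 369.8, 377 and 424 in HOM saline muscle, and 276, 329, 215 and 259 in WT AAV muscle, against 355, 363, 376 and 374 in WT saline muscle. Neither pair of groups overlapped. Its changes were -0.79 ± 0.12 (adjusted p = 3.17e-07) in HOM and -0.46 ± 0.12 (adjusted p = 0.0021) in WT muscle at 21 dpi. At 7 dpi they were -0.35 ± 0.11 (adjusted p = 0.0107) in HOM and -0.31 ± 0.12 (adjusted p = 0.034) in HET muscle. Of these 4 calls only that in HOM muscle at 21 dpi held with quantile normalization, and those at 7 dpi were lost without HOM saline replicate 4 and without any of 6 of the 8 HET libraries. Psme3, the nuclear PA28 gamma subunit, changed by 0.17 ± 0.07 (adjusted p = 0.0394) at 3 dpi and -0.19 ± 0.07 (adjusted p = 0.0114) at 21 dpi in HOM muscle. The first was lost when any of 6 of the 8 libraries was left out and the second with quantile normalization, and both when only the groups compared were fitted. The inhibitor Psmf1 was called in none of the AAV and saline comparisons.

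Among the assembly factors other than Psmd5, Psmg4, a chaperone of the alpha ring, had 4.01, 5.05, 4.81, 4.79 and 4.13 normalised counts in HOM AAV muscle at 7 dpi, against 1.98, 2.02, 1.77 and 2.67 in HOM saline muscle. The groups did not overlap at this low level, and the change was 0.84 ± 0.22 (adjusted p = 0.00173), with 0.81 ± 0.23 (adjusted p = 0.00412) in HET muscle. Psmd10, which escorts a base ATPase, rose by 0.48 ± 0.13 (adjusted p = 0.00363) in HOM muscle at 7 dpi. Its HET change was 0.32 ± 0.14 (adjusted p = 0.0648). Psmd9 was not called in any AAV and saline comparison.

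The rise changed with time in HOM muscle. From 3 to 7 dpi the response grew for 4 members and shrank for 0 (beside 2.8% and 3.16% of all genes; 12 members had an unadjusted p under 0.05, and edgeR and DESeq2 also found 0 that shrank), namely Psmb5 (0.40 ± 0.12, adjusted p = 0.0379), Psmb7 (0.38 ± 0.10, adjusted p = 0.0105), Psmc3 (0.33 ± 0.10, adjusted p = 0.0372) and Psmd13, a lid subunit (0.40 ± 0.11, adjusted p = 0.0176). That count lay between 1 and 6 when single libraries were left out, and was 1 without HOM AAV replicate 2 or HOM saline replicate 1 at 3 dpi; Psmb7 alone kept its call in every such fit, and when only the groups compared were fitted Psmd13 alone was called. From 7 to 21 dpi the response shrank for 19 members and grew for 2, Psme1 and Psme2, beside 6.27% and 7.54% of all genes. Without HOM AAV replicate 1 at 21 dpi the response shrank for 12, and the call for Psme2 was lost, as it was when only the groups compared were fitted. The largest declines were those of Psmb7 (-0.67 ± 0.10, adjusted p = 3e-06), Psmd6 (-0.60 ± 0.10, adjusted p = 2.65e-05) and Psmb5 (-0.55 ± 0.12, adjusted p = 0.00207).

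At 21 dpi, 14 members were higher and 6 lower with AAV in HOM muscle, beside 29.7% and 29.6% of all genes, so the shares of members called were close to or below those of all genes. The median log2 change of the members was 0.11, against 0.00 for all genes. Quantile normalization, which moved the median of all genes to -0.12, gave 25 higher and 2 lower, and a count of 9 higher was found without HOM AAV replicate 2. In WT muscle at 21 dpi 13 were higher and 1 lower, beside 19.7% and 21.3%, and the median was 0.12. Psma5, Psmc1, Psmd13, Psmd5, Psmd8, Psme1, Psme2 and Psmg4 were on both 21 dpi lists, 8 of the 14 HOM and of the 13 WT genes. Of the 34 members higher at 7 dpi in HOM muscle, 13 were higher, 18 not called and 3 (Psma3, Psmb7 and Psmd6) lower at 21 dpi. Other members lower on that day were Psme3, Psme4 and Psmg2. For all genes, neither the overlap of the HOM and WT lists nor the change of call from 7 to 21 dpi was counted. For 9 members the HOM libraries were separated upward and for 6 downward (21.5% and 22.5% of all genes), and in WT muscle for 14 and 3 (16.4% and 19.9%).

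The immunoproteasome genes, which encode replacement catalytic subunits of immune cells and of cells exposed to interferon, are outside the name rule and followed another course. At 21 dpi Psmb8, Psmb9 and Psmb10 rose in HOM muscle by 3.09 ± 0.33 (adjusted p = 6.65e-11), 3.28 ± 0.34 (adjusted p = 4.17e-11) and 2.79 ± 0.22 (adjusted p = 2.2e-14), and in WT muscle by 2.52 ± 0.33, 2.68 ± 0.34 and 2.23 ± 0.22. At 7 dpi the HOM changes were 0.70 ± 0.31 (adjusted p = 0.0626), 0.92 ± 0.32 (adjusted p = 0.0189) and 0.64 ± 0.20 (adjusted p = 0.00977). The call for Psmb9 was lost without HOM saline replicate 1, with quantile normalization and with a pseudocount of 4. None of them was called in HET muscle at 7 dpi, where the changes were 0.17, 0.03 and 0.29. The summed counts of these 3 genes over those of Psmb5, Psmb6 and Psmb7 averaged 0.482 ± 0.219 in HOM AAV muscle at 21 dpi and 0.0418 in HOM saline muscle (SD, n = 4 each). In WT muscle at 21 dpi the ratio averaged 0.281 with AAV and 0.0427 with saline.

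**Figure D5:**
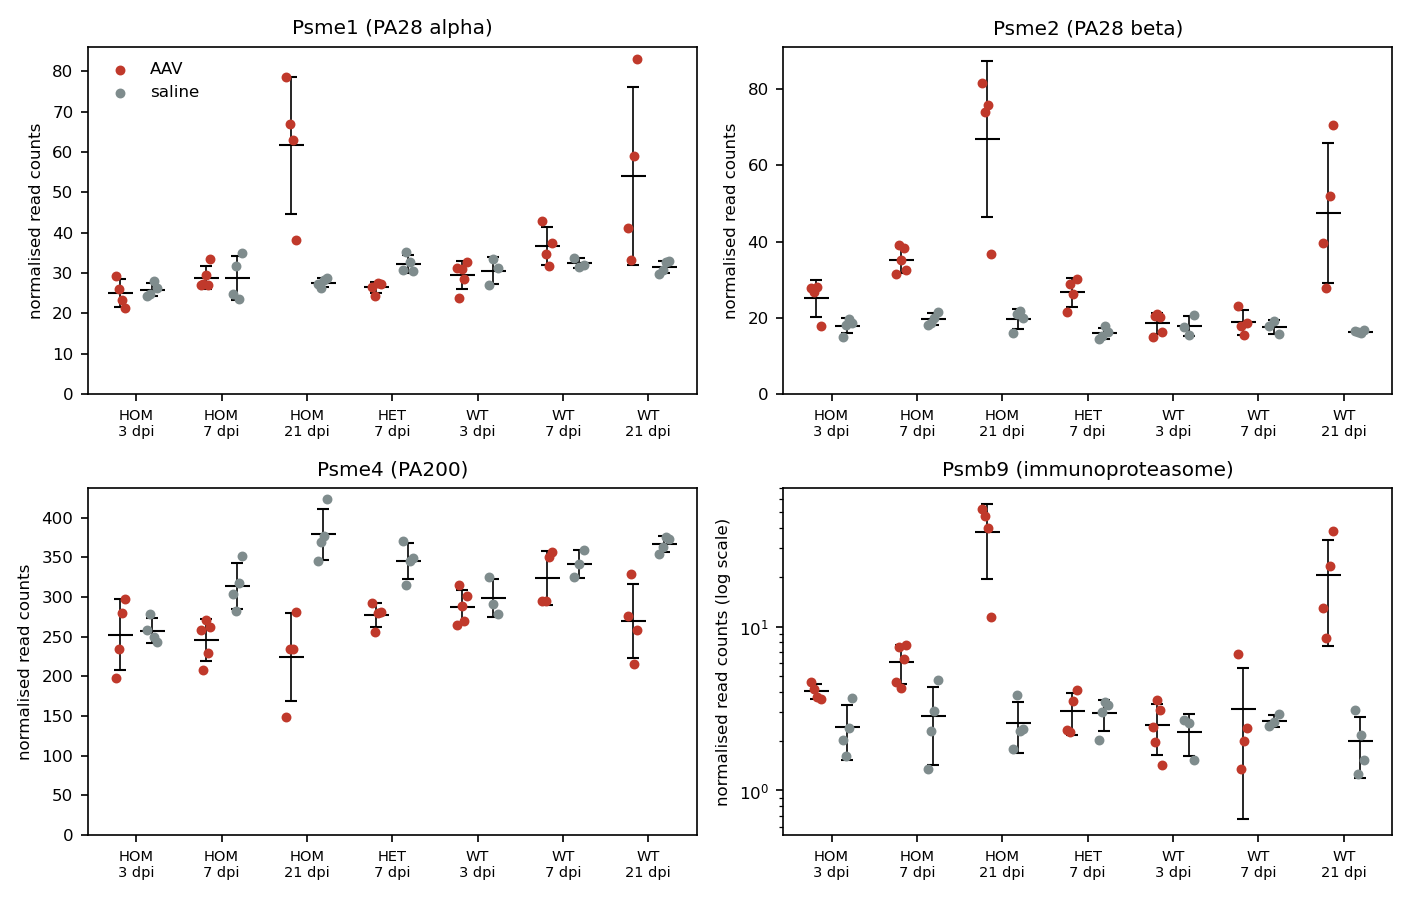
Normalised read counts of Psme1, Psme2 and Psme4 (linear y axes from 0) and of the immunoproteasome gene Psmb9 (logarithmic y axis) in each library by genotype and day, AAV left of saline; points are libraries, with group mean and SD. At 21 dpi Psme1, Psme2 and Psmb9 stood higher with AAV in HOM and WT muscle and Psme4 stood lower, with HOM AAV values of 11.5 normalised counts or more for Psmb9.

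Markers of other cell types also changed with AAV, in part at other times than the proteasome genes. Of 20 macrophage markers, 19 were higher in HOM muscle at 3, 7 and 21 dpi, 18 in HET muscle at 7 dpi and 19 in WT muscle at 21 dpi. Their summed level was 453 to 1217, 396 to 624 and 376 to 3389 normalised counts in HOM AAV muscle at 3, 7 and 21 dpi, against 92.3 to 205, 90.3 to 139 and 50.7 to 118 in HOM saline muscle. HET AAV muscle held 293 to 531, against 76.5 to 139.9 in HET saline muscle, and WT AAV muscle at 21 dpi 410.4 to 1292, against 77.4 to 102 in WT saline muscle. WT AAV muscle at 3 dpi, where no member was called, held 155 to 419, against 110.1 to 114 in WT saline muscle. Of 11 T and natural killer cell markers, 11 were higher at 21 dpi in HOM and in WT muscle, with sums of 62.8 to 227 and 24.7 to 127 with AAV, against 1.81 to 2.46 and 1.31 to 3.61 with saline. In HET muscle at 7 dpi 0 of these 11 and 1 of 17 interferon response genes were higher, and in HOM muscle 6 and 8. Satellite cell markers were higher for 3, 3 and 5 of 7 in HOM muscle at 3, 7 and 21 dpi, 3 of 7 in HET muscle at 7 dpi and 3 of 7 in WT muscle at 21 dpi, and 1 was lower in HOM muscle at 3 dpi. Endothelial markers were lower for 6, 10 and 11 of 12 in HOM muscle, 9 in HET muscle and 11 in WT muscle at the same times. Fibroblast and matrix markers were higher for 7, 10 and 11 of 12 in HOM muscle, 11 in HET muscle and 11 in WT muscle, and 1 was lower in HOM muscle at 3 dpi. Fast fibre markers were lower for 10, 9 and 9 of 11 in HOM muscle at 3, 7 and 21 dpi and 5 of 11 in HET muscle, where 1 was higher, and for 7 of 11 in WT muscle at 21 dpi. The part of these cell types in the proteasome changes was not tested, and in whole muscle a change in the number of cells of a type cannot be told apart from a change in the RNA of each cell.

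HOM AAV replicate 1 at 21 dpi had the highest macrophage sum of the 56 libraries, 3389, with the lowest core and regulatory particle sum of the HOM AAV libraries, 2832. Its effective library size relative to the read total was also the largest, 1.49, so the rank of its core sum holds for this scaling. WT AAV muscle at 21 dpi, with macrophage sums of 410.4 to 1292, had core sums of 2959 to 3265, and HOM AAV muscle at 7 dpi, with macrophage sums of 396 to 624, had core sums of 4075 to 4491. HOM AAV muscle at 3 dpi, with macrophage sums of 453 to 1217, had core sums of 3294 to 3993. A relation between the sums was not tested.

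Of 10 proteasome partners outside the name rule, 3 were higher and 1 lower in HOM muscle at 3 dpi, 6 and 2 at 7 dpi, 2 and 4 at 21 dpi, and 6 and 2 in HET muscle at 7 dpi. Pomp, the chaperone that completes the core particle, changed by 0.16 ± 0.10 (adjusted p = 0.233), 0.99 ± 0.10 (adjusted p = 1.07e-10) and 0.73 ± 0.10 (adjusted p = 3.26e-08) in HOM muscle at 3, 7 and 21 dpi and by 0.76 ± 0.10 (adjusted p = 5.27e-08) in HET muscle. Pomp was also called higher in WT muscle at 21 dpi, with changes of 0.47 to 0.72 over the alternatives. Adrm1, a ubiquitin receptor of the base, rose by 0.41 ± 0.10 (adjusted p = 0.0012) at 3 dpi and 0.26 ± 0.09 (adjusted p = 0.0214) at 7 dpi in HOM muscle and by 0.43 ± 0.10 (adjusted p = 0.000437) in HET muscle. The 7 dpi call in HOM muscle was lost without AAV replicate 3 or saline replicate 3 or 4. Sem1, the smallest lid subunit, rose by 0.46 ± 0.08 (adjusted p = 1.4e-05) at 7 dpi in HOM muscle and 0.41 ± 0.09 (adjusted p = 0.000154) in HET muscle. Ecpas, a scaffold that binds the proteasome, was lower with AAV in HOM muscle, with changes of -0.48 ± 0.13 (adjusted p = 0.00194) at 7 dpi and -0.71 ± 0.13 (adjusted p = 1.12e-05) at 21 dpi. The first was lost with quantile normalization.

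The mRNAs of the NFE2L1 route were counted in the same way. Of 9 genes, 4 were higher and 2 lower in HOM muscle at 3 dpi, 0 and 1 at 7 dpi, 3 and 2 at 21 dpi, and 2 and 1 in HET muscle at 7 dpi. Of all genes, 17.4% were higher and 17.2% lower at HOM 3 dpi, and 20.6% and 22.5% at HOM 7 dpi. The shares were 29.7% and 29.6% at HOM 21 dpi, and 19.6% and 20.8% at HET 7 dpi. The same shares stand beside the counts of the other gene lists at these times. Nfe2l1 itself changed by -0.25 ± 0.13 (adjusted p = 0.131), 0.13 ± 0.12 (adjusted p = 0.409) and 0.11 ± 0.13 (adjusted p = 0.468) in HOM muscle and rose by 0.40 ± 0.13 (adjusted p = 0.0129) in HET muscle. Ddi2, the protease that cuts NFE2L1 into its active form, was lower in each: -0.41 ± 0.12 (adjusted p = 0.00911), -0.39 ± 0.12 (adjusted p = 0.00613), -0.65 ± 0.12 (adjusted p = 1.61e-05) and, in HET muscle, -0.41 ± 0.12 (adjusted p = 0.00731). The first was lost without HOM AAV replicate 1 at 3 dpi. Ngly1, the glycanase that edits NFE2L1, changed by -0.28 ± 0.09, -0.16 ± 0.08 and -0.55 ± 0.09 in HOM muscle. In WT muscle at 21 dpi Ddi2, Ngly1 and Nfe2l1 were called lower too. There the call of Ngly1 held under all 18 alternatives, and that of Ddi2 was lost with quantile normalization. The WT call of Nfe2l1 was lost under 10 of 18. NFE2L1 is controlled after translation, which mRNA levels do not measure.

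Genes that feed the proteasome moved in part with it. Ubiquitin genes and activating enzymes summed to 1308 to 1594 normalised counts in HOM AAV muscle at 3 dpi, against 1100 to 1167 with saline. At 7 dpi the HOM sums were 1171 to 1619 with AAV and 1149 to 1303 with saline. In HET muscle the AAV sums were mostly lower, at 830 to 1106 against 1085 to 1142, and the groups overlapped. Of 16 ubiquitin shuttle and p97 genes, 9 were higher and 1 lower in HOM muscle at 3 dpi, 5 and 2 at 7 dpi, 2 and 6 at 21 dpi, and 7 and 2 in HET muscle. Ubxn4, a p97 cofactor, rose by 0.81 ± 0.10 (adjusted p = 7e-08) and 0.52 ± 0.10 (adjusted p = 2.66e-05) in HOM muscle at 3 and 7 dpi and by 0.86 ± 0.10 (adjusted p = 5.82e-09) in HET muscle. Vcp, p97 itself, rose by 0.35 ± 0.07 (adjusted p = 4.28e-05) in HOM muscle at 7 dpi. Of 15 ubiquitin ligases of muscle, 1 was higher and 6 lower at 3 dpi, 1 and 4 at 7 dpi and 1 and 11 at 21 dpi in HOM muscle, and 3 and 3 in HET muscle. Trim63 rose by 0.93 ± 0.17 (adjusted p = 2.76e-05) in HOM muscle at 3 dpi and 0.68 ± 0.17 (adjusted p = 0.000854) in HET muscle, with changes of 0.04 ± 0.16 (adjusted p = 0.865) and -0.41 ± 0.17 (adjusted p = 0.031) in HOM muscle at 7 and 21 dpi. The 21 dpi call of Trim63 was lost without HOM AAV replicate 1 (adjusted p = 0.366) or HOM saline replicate 1 or 2, with edgeR and with DESeq2, with quantile normalization and when only the groups compared were fitted. Fbxo32 changed by 0.28 ± 0.28 (adjusted p = 0.452), -0.39 ± 0.26 (adjusted p = 0.23) and -1.12 ± 0.28 (adjusted p = 0.000529) in HOM muscle. Of the 8 CCT chaperonin genes, another multi-subunit complex, 6 were higher at 3 dpi, 0 at 7 dpi and 5 at 21 dpi in HOM muscle and 8 in HET muscle. At HOM 7 dpi their log2 changes were -0.09 to 0.12, while 30 of the 31 core and regulatory particle genes were called higher, from 0.19 to 0.69.

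The 10 genes outside the list whose 14 group means were most like the mean profile of the 31 genes were Nol3, Adrm1, Cst6, Anp32b, Aspscr1, Eif5a, Zfp524, Gabarap, Btf3 and Rpl36al, with Pearson correlations of 0.976 to 0.944 over the 14 group means. This is a description, since the groups share libraries' depth and normalization. Pomp reached 0.807 and Nfe2l1 0.504, while Psmb8 stood at 0.212. Among the members themselves Psmd9 (-0.61), Psme4 (-0.46), Psmf1 (-0.39), Psme3 (-0.24) and Psme1 (-0.19) had negative correlations with that profile.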

How the data were processed

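Total RNA came from bead-lysed muscle in TRI reagent, and a strand-marking kit was used for the libraries, per the labels' protocols. FastQC, Bowtie, RSEM, limma and GRCm38/mm10 are named in the submitters' processing notes, without versions; no strand option for the counting is stated there. RSEM shares out reads that match several genes, so genes with processed pseudogenes, which include many proteasome genes, are uncertain. The table the authors deposited holds a signal of normalised read counts: each value is a number of reads plus 0.5 over an effective library size, scaled to 1e6. Whole reads were recovered for 99.999% of values within 0.02 reads.

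On log2(value + 1), a scale that understates changes of low genes, limma 3.58.1 (R 4.3.3) fitted a mean for each group to all 56 samples with a trended prior. It tested the 13017 genes whose mean CPM was 1 or more, without the transgene, with Benjamini-Hochberg adjustment over all of them at 0.05. Errors of log2 changes are standard errors. Alternatives were edgeR 4.0.16 and DESeq2 1.42.0 on the recovered reads, other pseudocounts, filters, scalings and fits, a replicate block, and leaving out each library. On the recovered reads edgeR called 5520 and DESeq2 5591 genes at HOM 7 dpi, where limma called 2687 higher and 2929 lower. The report gives the depth of the libraries. Samples were grouped by their titles; roles and coordinates come from general knowledge and GENCODE M21. The members, gene lists and the rule for named genes were chosen with earlier results of these data known. The rule allowed full statistics for up to 8 called members with the largest change per comparison, not all of which are printed here. It also fixed some genes of each list and took the 10 genes most like the mean member profile. Which of the allowed statistics to print, and members described beyond the rule, were chosen after the values were seen. Deviations of same-numbered AAV and saline samples correlated over 0.1 in every pair of HET muscle at 7 dpi (0.13 to 0.18) and of HOM muscle at 21 dpi (0.16 to 0.23). This pairing was read from the data and not from the labels. In no other set did every pair exceed 0.1, although those of WT muscle at 21 dpi were all positive (0.04 to 0.08). No pair of libraries of a group agreed within sampling noise (lowest chi-square per gene 7.92). The method was tested on simulated data.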

Additional observations from a re-analysis of the deposited data

Results flagged for a closer look

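In groups of 4 to 10 libraries, the highest or lowest library of 18 members and of their summed core level was set against the rest of its group. It stood far from the others in 14 of 228 sets, where chance gives about 1 in 20. In HOM AAV muscle these were Psma7 at 98.5 normalised counts in replicate 3 at 7 dpi (others 86.0 to 89.6), Psmb5 at 68.8 and Psmd4 at 94.6 in replicate 1 at 21 dpi (others 81.6 to 83.3 and 125 to 131), and Psme2 at 18.0 in replicate 4 at 3 dpi (others 26.8 to 28.2). In HET AAV muscle it was Psmf1 at 15.2 in replicate 3. In WT AAV muscle these were Psmc3 at 139 in replicate 1 at 7 dpi, Psmd5 at 14.8 in replicate 1 at 3 dpi and Psmg4 at 3.00 in replicate 4 at 7 dpi. In HOM saline muscle these were Psma7 at 48.7 in replicate 1 and Psmb6 at 80.3 in replicate 4 at 3 dpi, Psmd8 at 105.7 in replicate 4 at 21 dpi (others 128 to 129.8), and the summed core level at 3420.2 in replicate 1 at 7 dpi (others 3054 to 3101). In WT saline muscle these were Psmf1 at 19.9 in replicate 1 and the summed core level at 3044 in replicate 2, both at 21 dpi.

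Responses to AAV that differed by an interaction test were larger in HOM than WT muscle for 15 members at 3 dpi and 28 at 7 dpi, and larger in HET than WT muscle for 27. They were smaller in HOM than HET muscle for 3. Within HOM muscle the response at 7 dpi was larger than at 3 dpi for 4 members, and at 21 dpi it was larger than at 7 dpi for 2 and smaller for 19.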

How the results depend on the processing

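Counts of members called at HOM 3 dpi, HOM 7 dpi and HET 7 dpi stayed within 1.5 times under every alternative for the higher direction, and the members' median log2 change stayed positive there under each scaling. Of 152 called log2 changes of named genes, 116 kept their call under every alternative run, 36 lost it under at least 1 and 0 reversed. With quantile normalization the higher counts were 25 at HOM 21 dpi, 25 at WT 21 dpi, 23 for HOM minus WT at 3 dpi, 1 for HOM minus HET and 0 for HOM against WT saline at 3 dpi, and the lower counts 0 at HET 7 dpi, 2 at HOM 21 dpi, 0 at HOM 7 dpi and 12 for HOM 21 minus 7 dpi. Fitting only the groups compared, which leaves fewer samples to estimate the spread, gave higher counts of 7 at HOM 21 dpi, 1 for HOM 21 minus 7 dpi, 1 for HOM 7 minus 3 dpi and 0 between saline groups at 3 dpi, and lower counts of 2 at HET 7 dpi, 1 for HET minus WT, 2 at HOM 21 dpi, 1 for HOM minus HET and 9 for HOM 21 minus 7 dpi. Without a filter the lower counts were 2 at HET 7 dpi and 1 for HET minus WT. The single call between HOM and WT saline muscle at 3 dpi became 0 with edgeR, no filter and a pseudocount of 4; the cause of these moves was not tested. In most sets the replicate numbers did not pair the samples (correlations of deviations over 0.1 in 12 and under -0.1 in 5 of 26 pairs). A single replicate block over all samples lost that saline call (0) and moved no other count beyond 1.5 times. Blocks within HET 7 dpi and within HOM 21 dpi, where every pair exceeded 0.1, were added after seeing the data and changed no call of a named gene; the counts were 33 higher and 1 lower at HET 7 dpi, 14 and 6 at HOM 21 dpi, and 23 lower for HOM 21 minus 7 dpi. Leaving out 1 library at a time, higher counts ran from 25 to 32 at HOM 3 dpi, 32 to 35 at HOM 7 dpi, 9 to 17 at HOM 21 dpi, 31 to 34 at HET 7 dpi, 9 to 18 at WT 21 dpi, 9 to 19, 24 to 29 and 0 to 1 for HOM minus WT at 3, 7 and 21 dpi, 23 to 26 for HET minus WT, 0 to 1 for HOM minus HET, 1 to 6 for HOM 7 minus 3 dpi, 1 to 2 for HOM 21 minus 7 dpi, 0 to 1 and 2 to 3 between HOM and WT saline at 3 and 21 dpi. Lower counts ran from 0 to 1 at HOM 7 dpi and HET 7 dpi, 4 to 7 at HOM 21 dpi, 1 to 2 at WT 21 dpi, 0 to 1 for HOM minus WT at 21 dpi, 1 to 3 for HOM minus HET and 12 to 22 for HOM 21 minus 7 dpi. The 2 arms with 3 libraries, WT saline at 3 and 7 dpi, and low counts of Psmg4, Psmc3ip and Psme2b, limit what could be detected.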
